A study of Drosophila melanogaster with 35 samples.

Results

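Rif1PP1 mitotic follicle cells were compared with wild-type mitotic follicle cells by the replication timing (RT) of the Drosophila melanogaster genome. The members were all 100-kb windows with a finite RT value in both genotypes, outside X 2.7 to 3.0 Mb, and they numbered 13353 of the 13391 windows deposited. Windows that reach the right-hand end of a scaffold are cut off there and are shorter than 100 kb. Rif1PP1 females carried 1 Rif1 allele in which the SILK/RSVF motif that binds Protein Phosphatase 1 (PP1) had been changed to SAAK/RASA, over the null allele Rif1(1), so they had no wild-type copy of the gene. Wild-type females were of the Oregon-R strain. Ovaries of adult females kept on wet yeast for 2 days were disrupted, and S phase nuclei with a DNA content between 2C and 4C were sorted and sequenced, in 2 samples per genotype. The gate is named mitotic here, and it may also hold nuclei in their first endocycle. Also used were Rif1 null (Rif1(1)/Rif1(2)) and Rif1 heterozygous (Rif1(2)/CyO) mitotic follicle cells, Oregon-R endocycling follicle cells, and wing discs of Rif1PP1 and yw larvae at the last stage. All mutant females thus carried a null allele of Rif1, and they are not labelled as Oregon-R, so that strain and genotype cannot be told apart.

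Eukaryotic genomes replicate in a fixed order, in which gene-rich euchromatin generally precedes the pericentric heterochromatin around the centromeres, which is rich in repeats and poor in genes. An origin fires when the DDK kinase phosphorylates the loaded MCM helicase. Rif1 binds PP1 and brings it to chromatin, where the phosphatase can reverse that step, and Rif1 is known for holding back replication of heterochromatin. Follicle cells are the epithelium around the growing egg, and after their mitotic cycles they endocycle and then amplify the eggshell genes.

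RT was the log2 ratio of S phase over G1 reads in a window, and a larger value means earlier replication. A low ratio can also mean underreplication, a copy number below that of the rest of the genome. The study, citing earlier work, places it in pericentric heterochromatin of follicle cells and states that it depends on Rif1. The authors argue that their changes in Rif1 null follicle cells are changes in timing. The means used here cannot tell timing from copy number, and underreplication was not tested. The deposited table holds 1 mean per condition and no value per sample. No error and no test could therefore be given, the depth is unknown, and every comparison below describes the means of 2 samples against 2. Each profile was centred on the median of its chromosome arm, and a window was called advanced above a change of 0.1 and delayed below −0.1, with the change being Rif1PP1 minus wild type. Windows step by 10 kb, so that neighbours share reads and are not independent. In Rif1PP1 cells 5 windows were infinite and 2 were empty, and the 31 windows left out on X reached 6.61 in Rif1PP1 and 6.70 in wild-type follicle cells but 0.13 in Rif1PP1 and 0.09 in yw wing discs. As a check of the cell type, the window with the 4 eggshell genes of the Cp15 cluster on 3L, which only follicle cells amplify, stood at 0.64 in Rif1PP1 follicle cells against 0.11 in Rif1PP1 wing discs.

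To show what the windows at issue are made of, 240 bases are given from the middle of 2 runs of changed windows. They come from the RefSeq assembly of the dm6 build (plus strand, 5′ to 3′), and capitals mark bases that RefSeq masks as repeats. The first is intergenic and lies in pericentric heterochromatin of 3L that was advanced in Rif1PP1 cells. The second lies further along the same arm, in a stretch of the gene Dbp80 outside its annotated exons, in heterochromatin that was delayed.
3L pericentric, advanced, chr3L:26739881-26740120: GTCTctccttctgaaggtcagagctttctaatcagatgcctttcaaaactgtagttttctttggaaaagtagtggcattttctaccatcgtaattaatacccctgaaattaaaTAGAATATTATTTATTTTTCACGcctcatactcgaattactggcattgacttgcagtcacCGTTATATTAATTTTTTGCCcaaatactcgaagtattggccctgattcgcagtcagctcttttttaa
3L pericentric, delayed, chr3L:27289881-27290120: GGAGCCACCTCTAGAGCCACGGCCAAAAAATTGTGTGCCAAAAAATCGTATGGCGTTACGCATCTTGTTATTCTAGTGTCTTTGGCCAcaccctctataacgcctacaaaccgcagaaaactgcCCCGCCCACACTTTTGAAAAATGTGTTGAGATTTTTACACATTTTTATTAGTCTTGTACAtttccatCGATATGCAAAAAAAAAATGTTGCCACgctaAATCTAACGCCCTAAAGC
Of these bases 19.6% were masked in the first and 80.4% in the second. The windows that hold them had RT values of −0.23 in Rif1PP1 against −0.83 in wild type for the first and −0.03 against 0.31 for the second. Masked sequence made up 23.9% of the first window and 33.6% of the second. Over all pericentric windows the advanced share was 51.5% in the least masked quintile and 69.9% in the most masked one.

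Across the genome 2366 windows (17.7%) were advanced and 1600 (12.0%) were delayed in Rif1PP1 follicle cells, which makes 29.7% changed. Advanced windows were concentrated in pericentric heterochromatin, which holds 13.6% of the windows and 46.7% of the advanced ones. There 1104 of 1811 windows (61.0%) were advanced and 276 (15.2%) delayed, with a median change of 0.25 (quartiles −0.01 and 0.69). Along the arms themselves, advanced windows numbered 1262 of 11409 (11.1%) and delayed ones 1290 (11.3%), with a median change of −0.01. Changed windows moved by a median of 0.48 in size in heterochromatin and 0.15 on the arms. Which direction was the more frequent depended on the scaling: 2197 windows were advanced and 2346 delayed without centring, and 2105 and 2379 after quantile normalization of the pair of profiles. The deposited difference had the same sign as the centred change in all 3966 changed windows.

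The change was ordered by the wild-type timing level. To keep the wild-type mitotic values off both axes, the level was taken from wild-type endocycling follicle cells, which come from the same strain and whose profile differed from the mitotic one by over 0.1 in 7.38% of windows. That profile was not interchangeable with the mitotic one in heterochromatin, where it was later by over 0.1 in 33.7% of windows (76.7% on 3R) and earlier in 3.59%. In the latest quintile (1 of 5 equal groups of windows) the median RT was −0.07 in Rif1PP1 cells against −0.23 in wild type, with a median change of 0.22, and 61.5% of windows were advanced and 4.04% delayed. That median was 0.10 after quantile normalization and 0.023 without windows over 20% masked or gap. The median change was 0.00, −0.01, −0.02 and −0.03 in the following quintiles, and the delayed share climbed to 22.1% in the earliest quintile, where 2.73% were advanced. Pericentric windows made up 41.9% of the latest quintile. On the arms alone the latest quintile changed by a median of 0.04, with 32.7% advanced and 6.70% delayed, and the earliest by −0.03, with 2.45% advanced and 16.3% delayed.

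Within pericentric heterochromatin the same order was much steeper. Its 5 quintiles, from latest to earliest, changed by medians of 0.78, 0.66, 0.22, 0.03 and −0.10. In the latest quintile 361 of 363 windows were advanced, and in the earliest 188 of 362 were delayed and 14 advanced. The regression slope of RT on the endocycling profile was 0.15 in Rif1PP1 cells against 0.86 in wild type over the 1811 pericentric windows, and 0.51 against 1.07 over the 11409 windows of the arms. RT in Rif1PP1 cells thus rose less steeply with the endocycling profile than wild-type RT did in both compartments, and more so in heterochromatin. A smaller slope is not by itself a smaller spread. On the arms the quartiles of RT were −0.065 and 0.075 in Rif1PP1 cells against −0.054 and 0.067 in wild type. The SD over arm windows was 0.12 against 0.13, and Pearson's r with the endocycling profile was 0.51 against 0.95. These slopes and spreads describe overlapping windows of a genome and carry no error.

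**Figure D1:**
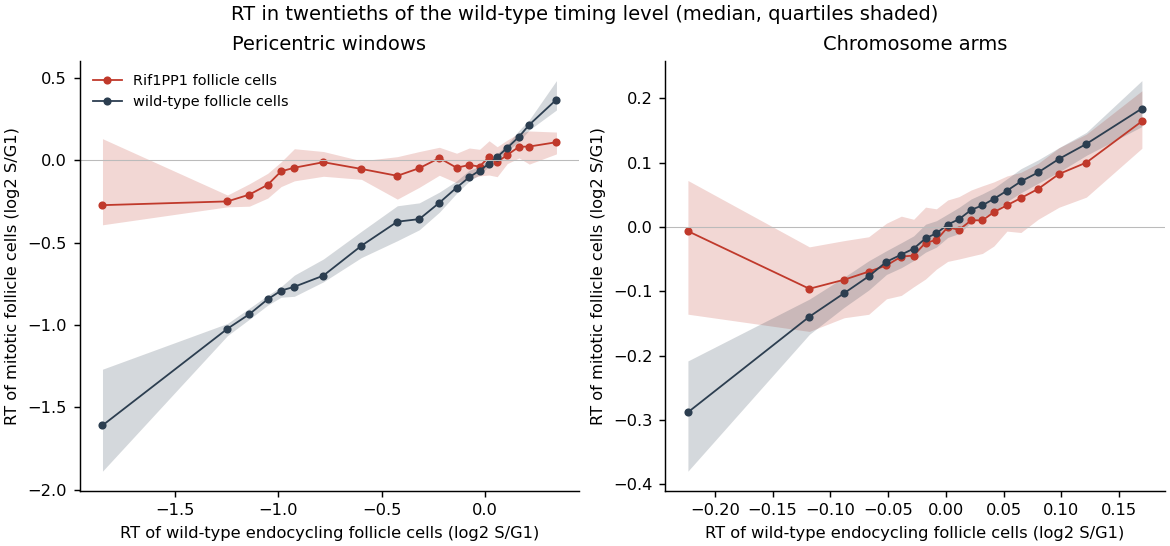
Median RT (log2 S/G1; quartiles shaded) of Rif1PP1 (red) and wild-type (dark) mitotic follicle cells in 20 equal groups of windows ordered by RT in wild-type endocycling follicle cells, for pericentric windows (left) and chromosome arms (right), whose axes differ in scale. In the latest pericentric group the median is −0.27 in Rif1PP1 cells against −1.61 in wild type, and at the early end Rif1PP1 medians lie below wild type.

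Pericentric heterochromatin of Rif1PP1 cells had lost most of its late windows. The median pericentric RT was −0.03 (SD over windows 0.23) in Rif1PP1 cells against −0.26 (SD 0.52) in wild type. Only 27 windows lay below −0.5 in Rif1PP1 cells, against 697 in wild type, and 7 against 166 lay below −1. Of the 697 late wild-type windows, 692 were advanced and 671 were above −0.5 in the mutant, but no more than 153 were above 0. Most of these windows therefore moved toward the level of the arm without passing it. The 697 windows were picked by the wild-type mitotic values that also enter the change. Picked by the wild-type endocycling profile instead, 731 pericentric windows lay below −0.5, and 724 of them were advanced.

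The arms differed in how far their heterochromatin moved. On 3R the pericentric median was −0.19 in Rif1PP1 cells against −0.85 in wild type, with a median change of 0.68 and 82.9% of 416 windows advanced. The X had the next largest median change, 0.35, with RT of 0.17 in Rif1PP1 cells against −0.27 in wild type. The median change was 0.18 on 2R and 0.14 on 3L, where 26.1% of windows were delayed. It was 0.03 on 2L, where the wild-type median was already −0.04 and the assembled heterochromatin is short (155 windows). 3R thus started latest, moved most by its median, and was also the arm whose Rif1PP1 heterochromatin remained the lowest.

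**Figure D2:**
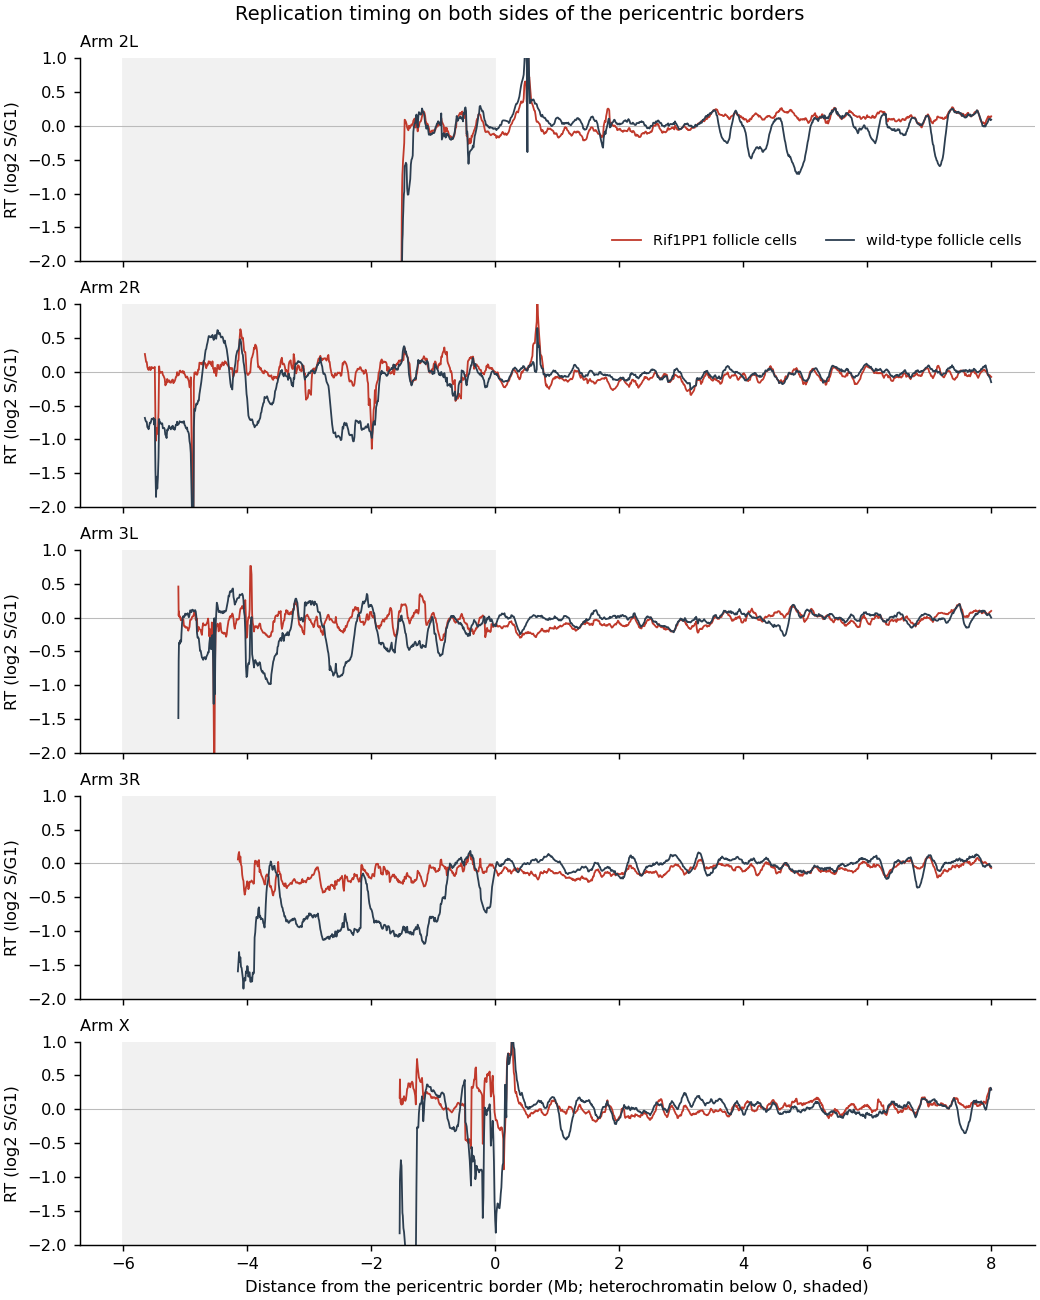
RT (log2 S/G1) of Rif1PP1 (red) and wild-type (dark) mitotic follicle cells against the distance from the pericentric border of each arm in Mb, with heterochromatin shaded; 32 of 5811 windows have a value beyond the vertical axis. The long wild-type troughs of 2R, 3L and 3R heterochromatin are shallow in the mutant, and the median of the first 1 Mb outside the border changed by −0.16 to −0.03 across the arms.

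Advanced heterochromatin came in long blocks. There were 29 runs of at least 5 consecutive advanced windows, the longest of 1460 kb, and 16 delayed runs, the longest of 550 kb. The run with the largest mean change lay at the end of X (chrX:23090001-23542271, 46 windows), with a mean RT of 0.29 in Rif1PP1 cells against −1.28 in wild type. It reaches the scaffold end, so its last windows are cut off and nested. On 3R the centromere-proximal run (chr3R:1-580000; 49 windows) averaged −0.17 in Rif1PP1 cells against −1.23 in wild type. Next to it a run of 137 windows (chr3R:650001-2110000), inside the giant myosin gene Myo81F, averaged −0.25 against −0.88, and another of 133 windows (chr3R:2050001-3470000) averaged −0.16 against −0.87.

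The leading runs of the other arms were alike in form. On 2L it covered the last 25 windows (chr2L:23270001-23513712), with means of −0.31 in Rif1PP1 cells against −1.12 in wild type. Those means are pulled down by nested windows cut off at the scaffold end, the last at −2.25 against −4.40. The full windows of that run lay between −0.07 and 0.09 in Rif1PP1 cells and between −1.02 and −0.09 in wild type. On 2R the leading run covered the first 75 windows (chr2R:1-840000), with means of −0.10 against −0.87. Every window in it changed by 0.66 to 1.12. On 3L 61 windows (chr3L:26390001-27090000) averaged −0.07 against −0.64, although 17.7% of this run is unsequenced gap in the assembly. With at most 2 protein-coding genes each, those 3 runs are nearly empty of genes.

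Delayed pericentric runs coincided with the opposite kind of wild-type level. Because runs were picked by Rif1PP1 minus wild type, this is partly set by the choice. The largest mean delay, −0.38, was on 2R (chr2R:970001-1440000; 38 windows), with RT of 0.09 in Rif1PP1 cells against 0.47 in wild type. It holds rl, the MAP kinase gene rolled. On 3L a run of 46 windows (chr3L:27010001-27560000) averaged −0.07 against 0.22 and holds vtd (the cohesin subunit Rad21), Dbp80 (an RNA helicase) and RpL15 (a ribosomal protein). Smaller delays were found on X (chrX:22410001-22590000), with means of −0.11 against 0.16 over 16 protein-coding genes, and on 2L (chr2L:22090001-22300000), with 0.03 against 0.17. The exception was 11 windows on 3R (chr3R:510001-710000), between 2 advanced blocks, which averaged −0.38 in Rif1PP1 cells against −0.05 in wild type. Here the wild-type endocycling level was −0.39, so the delay was absent against that profile (a difference of 0.01).

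**Figure D3:**
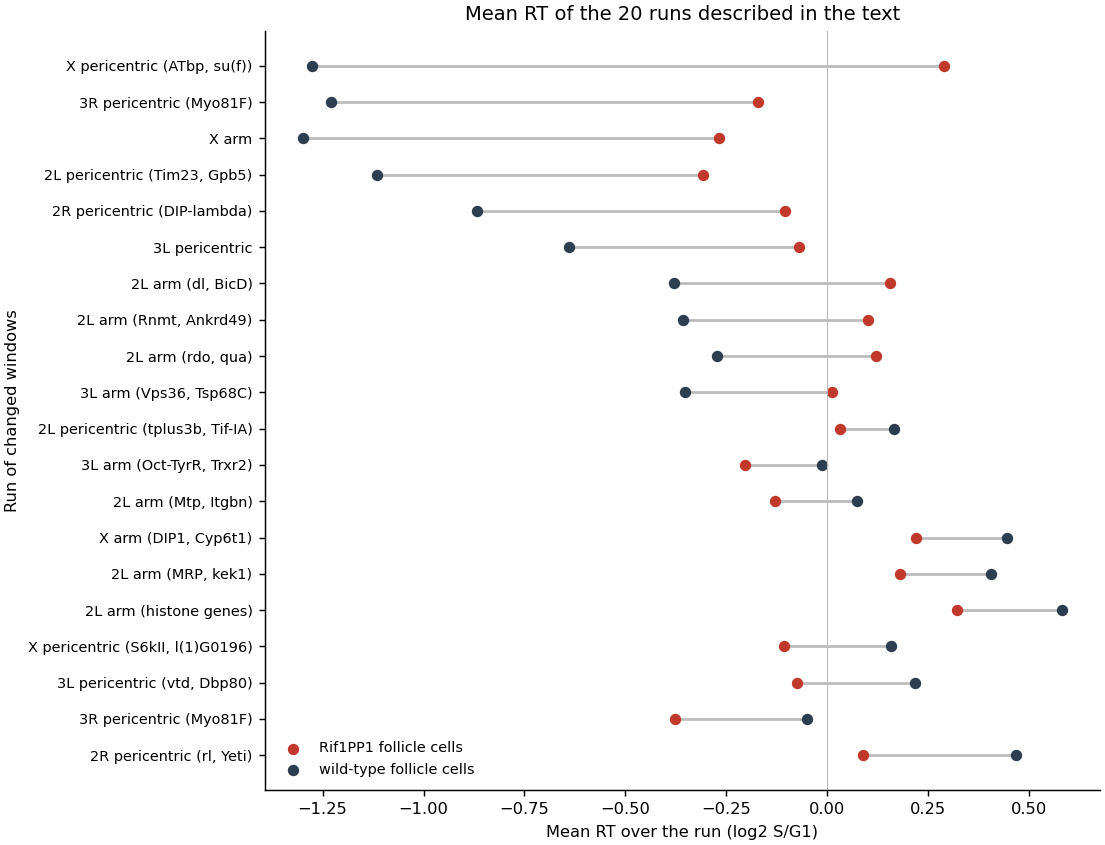
Mean RT (log2 S/G1) of Rif1PP1 (red) and wild-type (dark) mitotic follicle cells in 20 runs of changed windows, with 2 genes of each run where it has any named ones, ordered by change from the largest advance at the top. The 10 advanced runs start at wild-type means of −0.27 or lower, and in the 10 delayed runs wild type lies at −0.05 or above. Runs were picked by the change, which holds the wild-type value, so this contrast is partly built in by that choice.

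Of 20 pericentric genes chosen as a list, 6 were in advanced and 8 in delayed windows, beside 61.0% and 15.2% of all pericentric windows. The value of a gene is that of the window centred nearest to it. Snap25, a protein of synaptic vesicle fusion, had RT of 0.31 in Rif1PP1 cells against −0.45 in wild type, and Myo81F had −0.32 against −1.07. The ecdysone synthesis genes spok and nvd had −0.02 against −0.56 and −0.04 against −0.43. Nipped-B, the cohesin loader, and nAChRalpha4, an acetylcholine receptor subunit, were advanced by 0.14 and 0.11. All of these but Nipped-B lay below −0.1 in wild type.

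The delayed members were earlier in wild type. Genes were sorted by the change, in which the wild-type value takes part. The window of rl stood at 0.15 in Rif1PP1 cells against 0.52 in wild type, that of RpL15 at 0.02 against 0.39, that of Dbp80 at −0.24 against 0.09 and that of vtd at −0.03 against 0.29. The piRNA cluster flam, on the arm side of the X border as drawn here, stood at 0.72 against 1.03. The neurotransmission genes stnA and stnB share a window that was delayed by 0.10, and su(f), which encodes an mRNA 3′ end processing factor, was delayed by 0.11. The other 6 genes (lt, cta, Nipped-A, p120ctn, RpL38 and Parp) changed by −0.08 to 0.04, and their wild-type levels lay between −0.11 and 0.17.

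Gene content separated pericentric windows as well. The 407 windows that touch no protein-coding gene had a median RT of −0.05 in Rif1PP1 cells against −0.65 in wild type, and 84.3% of them were advanced. The 1141 windows with 1 or 2 genes changed by a median of 0.25. The 263 windows with 3 or more genes had medians of 0.03 against 0.00, with 22.8% advanced and 27.8% delayed. On the wild-type endocycling scale, 2.46% of windows below −0.5 and 27.6% of those above 0 held 3 or more genes, so gene content and timing level moved together and their parts were not tested.

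**Figure D4:**
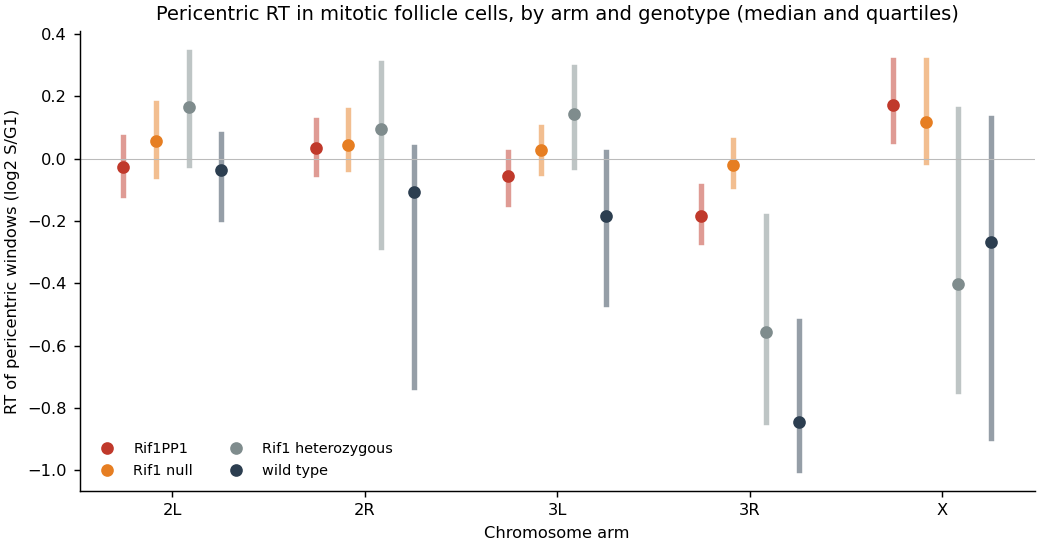
RT (log2 S/G1) of pericentric windows of each chromosome arm in Rif1PP1, Rif1 null, Rif1 heterozygous and wild-type mitotic follicle cells; points are medians over windows and bars run between the quartiles. In Rif1PP1 cells the bars are shorter than in wild type on all 5 arms, and on 3R the Rif1PP1 median of −0.19 lies between the Rif1 null (−0.02) and the wild-type (−0.85) medians.

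The other genotypes were set side by side against the same wild-type profile. The median pericentric RT was −0.03 in Rif1PP1 cells, 0.03 in Rif1 null cells, 0.01 in Rif1 heterozygous cells and −0.26 in wild type. The spread over windows separated them differently, with an SD of 0.23 in Rif1PP1, 0.20 in null, 0.47 in heterozygous and 0.52 in wild-type cells. Windows below −0.5 numbered 27, 24, 399 and 697 in the same order of genotypes. Advanced pericentric windows made up 61.0% in Rif1PP1, 64.7% in null and 81.5% in heterozygous cells, against 15.7% and 19.1% of all windows in the null and the heterozygote. In the earliest pericentric quintile the median change was −0.10 in Rif1PP1 cells, −0.07 in null and 0.17 in heterozygous cells. Over all pericentric windows, a median above that of Oregon-R was therefore found in the heterozygote too, which has a wild-type copy of Rif1. This did not hold on X, where the heterozygous median was −0.40 against −0.27 in wild type. On the other arms the heterozygous median was 0.16 on 2L, 0.09 on 2R, 0.14 on 3L and −0.56 on 3R. The small spread and a lower median in early heterochromatin were found with the PP1-motif and null genotypes. All 3 comparisons share the wild-type samples, and the differences between genotypes were not tested.

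Euchromatin next to the heterochromatin was delayed. In the first 1 Mb of the arms from the pericentric border the median RT was −0.10 in Rif1PP1 cells against 0.03 in wild type, and 310 of 500 windows (62.0%) were delayed and 38 (7.60%) advanced. The size rests on where the border is drawn, since a border 0.5 Mb closer to the centromere gave a median change of −0.047 for the first 1 Mb. The median change was −0.12 there, −0.09 between 1 and 2 Mb, −0.07 between 2 and 3 Mb and −0.06 between 3 and 4 Mb, and from 4 Mb up to 23 Mb it lay between −0.03 and 0.03. By arm the first 1 Mb changed by −0.16 on 2L, −0.15 on 3L, −0.16 on 3R, −0.11 on X and −0.03 on 2R. With a boundary chosen after the values were seen, 41.7% of the 1997 windows within 4 Mb were delayed against 4.87% of the 9412 windows further out. Their median GC content was 42.6% in both groups. After removal of the GC trend the median change was −0.13 in the first 1 Mb. It shrank to −0.07 between 1 and 2 Mb, −0.05 between 2 and 3 Mb and −0.04 between 3 and 4 Mb. Between 1 and 2 Mb the delayed share was then 33.6%, against 43.2% before. The part of GC content in this zone was not tested. In the first 1 Mb the median change was −0.07 in Rif1 null and 0.02 in Rif1 heterozygous follicle cells. By arm the null changed by −0.16 on 2L, −0.05 on 3L, −0.09 on 3R, −0.10 on X and 0.01 on 2R. Differences between these genotypes were not tested.

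**Figure D5:**
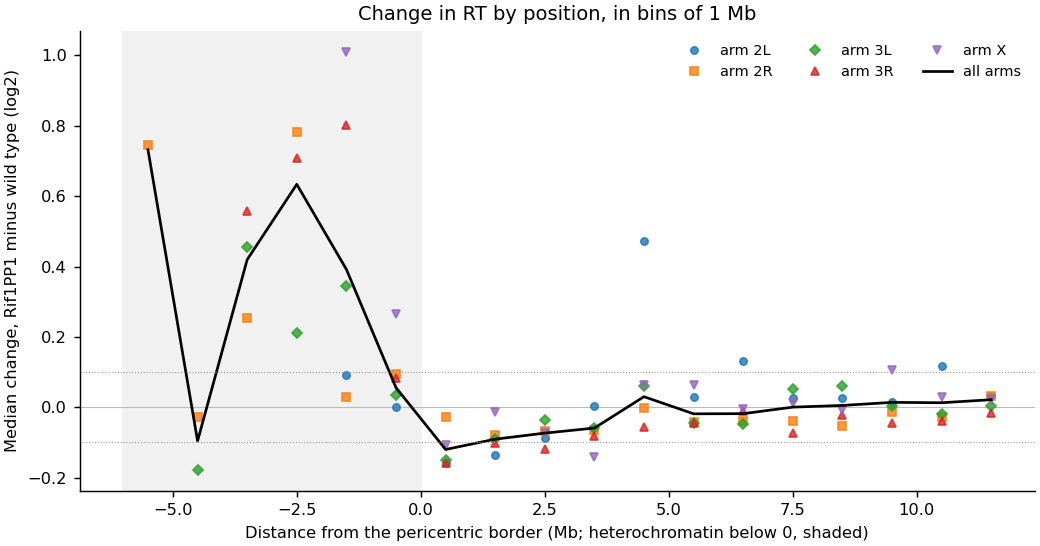
Median change in RT (Rif1PP1 minus wild type, log2) in bins of 1 Mb by distance from the pericentric border, for each arm (symbols) and over all arms (line); heterochromatin is shaded, and dotted lines mark changes of 0.1 and −0.1. The median of all arms was −0.12 in the first bin outside the border and came back to near 0 beyond 4 Mb, where the single high symbol of 2L is the late region around dl and CadN2.

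Many delayed runs of the arms reached into that zone, which holds 1997 of the 11409 arm windows. Its limit of 4 Mb was chosen after the values were seen. Runs are built from the called windows counted above, so their number adds no separate support. Of 70 delayed runs of at least 5 windows, 39 reached within 4 Mb of the border, against 7 of 61 advanced runs. One of the longest, on 3R (chr3R:4600001-5360000; 67 windows), averaged −0.15 in Rif1PP1 cells against 0.04 in wild type, and on 3L a run of 55 windows (chr3L:21930001-22570000) averaged −0.20 against −0.01. On 2L 17 windows (chr2L:20850001-21110000) averaged −0.13 against 0.08. A run further out, at 8 windows around the transmembrane protein gene kek1 (chr2L:12710001-12880000), averaged 0.18 against 0.41. Just distal to the X border, 21 windows that include part of flam (chrX:21470001-21770000) averaged 0.22 against 0.45. The longest delayed run, 850 kb on X (chrX:18260001-19110000), averaged −0.04 against 0.12. Wild-type RT in most of these runs was near or above the arm median, and Rif1PP1 RT stayed within 0.25 of that median in all 6. Both profiles enter the change by which the runs were called.

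The 5 advanced runs of the arms with the largest mean change were late in wild type, with means of −0.27 or lower. Wild-type values entered the change that picked these runs, so their lateness is partly set by the choice. On 2L 52 windows (chr2L:16870001-17480000) averaged 0.16 in Rif1PP1 cells against −0.38 in wild type. Among their 45 protein-coding genes are dl, the NF-kB factor Dorsal, and BicD, an adaptor in mRNA transport. The adjoining run (chr2L:17490001-18070000; 49 windows), with the neuronal cadherin gene CadN2, averaged 0.12 against −0.27. Another on 2L (chr2L:14660001-15030000; 28 windows) averaged 0.10 against −0.36. On 3L 31 windows (chr3L:13510001-13910000) with bru3, an RNA-binding protein gene, and Hml, a hemocyte clotting gene, averaged 0.01 against −0.35. These 4 regions, late in wild type, stood at or above the arm median in the mutant. The largest mean change on the arms belonged to 13 windows at the X border (chrX:21820001-22040000), which hold no protein-coding gene and averaged −0.27 against −1.30.

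Wild-type valleys and peaks, found in the endocycling profile, behaved differently. All 8 of the lowest valleys on the arms were higher in Rif1PP1 cells, by 0.39 to 1.66. The valley at chr2L:17050001-17150000 stood at 0.08 in Rif1PP1 cells against −0.71 in wild type, and that within bru3 (chr3L:13600001-13700000) at −0.04 against −0.49. The shallowest, around the axon guidance gene robo3 (chr2L:1270001-1370000), stood at −0.06 against −0.45. Of the 8 highest peaks 3 were delayed, 2 advanced and 3 changed by less than 0.1. Of all arm windows 11.1% were advanced and 11.3% delayed. Among the peaks are a cut-off window at the 3R scaffold end (chr3R:32070001-32079331), the amplified Cp15 cluster and a window in flam. One of the delayed peaks lies in the histone gene repeats, and it was advanced by 0.45 after quantile normalization. The peak at MRP and kek1 (chr2L:12760001-12860000) stood at 0.20 against 0.47, whereas a window on 2R without protein-coding genes (chr2R:6330001-6430000) stood at 1.21 against 0.64.

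The ends of the arms were advanced to unequal degrees. The outermost 10 windows of X averaged 0.39 in Rif1PP1 cells against −0.41 in wild type, but they ranged in change from 0.16 to 1.66, and the 3 nearest the telomere moved by 1.61 to 1.66. On 2R the mean was 0.16 against −0.12, with single windows between −0.17 and 0.46. On 3R it was 0.20 against 0.04, on 3L 0.04 against −0.10 and on 2L −0.14 against −0.17. The change was under 0.1 on 2L only. In the null the same windows changed by 0.59 on X, −0.09 on 2R, 0.01 on 3R, 0.14 on 3L and 0.06 on 2L.

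Of 12 follicle cell amplicon genes 9, in 3 of 6 windows, were advanced and 0 delayed, beside 11.1% of arm windows advanced and 11.3% delayed. The Cp15 to Cp19 cluster stood at 0.64 in Rif1PP1 cells against 0.43 in wild type, and Cp7Fc, Cp36 and Cp38 shared a window at 0.27 against 0.15. In wild-type endocycling cells these windows stood at 0.87 and 0.37, so the comparison with that profile had the opposite sign. Against the same wild-type mitotic cells, the Cp15 and Cp7Fc windows changed by 0.34 and 0.18 in the null. In the heterozygote they changed by 0.28 and 0.17. The advanced windows on X (chrX:8420001-8520000 and chrX:8430001-8530000) overlap and are not separate loci. The minor amplicon genes yellow-g, yellow-g2 and Vm34Ca changed by 0.02, 0.03 and 0.08. The share of older, amplifying nuclei in each sort was not measured, and its part was not tested.

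Of 9 Hox and Polycomb target genes 4 were delayed and 0 advanced, beside 11.3% and 11.1% of arm windows. Antp, Scr and Dfd of the Antennapedia complex stood at −0.16, −0.20 and −0.12 in Rif1PP1 cells against 0.03, −0.02 and 0.01 in wild type, and neighbouring windows share reads. These 3 genes lie between 2 and 3 Mb from the 3R border, in a bin where 60.0% of windows were delayed and the median change was −0.12. The segment polarity gene en was delayed by 0.12. The bithorax genes Ubx, abd-A and Abd-B changed by −0.03, 0.02 and 0.02, and they lie further from that border.

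Of 21 genes of replication control 0 were advanced and 3 delayed, beside 11.1% and 11.3% of arm windows. The Rif1 window itself stood at −0.09 in Rif1PP1 cells against 0.02 in wild type. Orc2, of the origin recognition complex, stood at 0.06 against 0.21, and Cdc7, the DDK kinase subunit, at −0.05 against 0.05. SuUR, whose protein recruits Rif1 to underreplicated domains, changed by 0.04, and the PP1 catalytic subunit genes Pp1alpha-96A, Pp1-87B, flw and Pp1-13C by −0.06 to 0.04. A window value says nothing about the expression of these genes.

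The histone gene repeats on 2L gave values too unstable for a direction. The window centred on them (chr2L:21430001-21530000) stood at 1.32 in Rif1PP1 cells against −0.39 in wild type, while the windows that start 10 kb before and after it changed by −0.57 and −0.55. The run of 22 windows beside the repeats (chr2L:21440001-21750000) averaged 0.32 against 0.58, and was 0.05 higher in Rif1PP1 cells when wild-type endocycling cells were the comparison. On chromosome 4, 0 of 133 windows were advanced and 34 (25.6%) delayed, beside 17.7% and 12.0% of all windows. Its median change was 0.01. Wild type reached 2.93 there, with 12 windows above 0.5, against a maximum of 0.87 in Rif1PP1 cells, and the largest delay was −2.06. The chromosome 4 gene ci, the Hedgehog effector, stood at 0.23 against 0.39, and ey, zfh2 and sv changed by 0.03 to 0.05.

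On the arms the change was related to base composition. The quintile of windows with the lowest GC content (median 39.9%) had medians of 0.08 in Rif1PP1 cells against 0.02 in wild type, and 29.6% were advanced. The quintile with the highest (45.3%) had −0.05 against −0.01, and 1.67% were advanced. Over the 11409 arm windows Spearman's rho between change and GC content was −0.36. In the null the lowest and highest GC quintiles changed by medians of −0.01 and 0.02, in the other order. Neighbouring windows share reads, and the part of GC content in library preparation was not tested.

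In log2 units the same allele gave a smaller pericentric median change in wing discs. Rif1PP1 wing discs were compared with yw wing discs, in which 16.0% of windows were advanced and 2.60% delayed. Pericentric windows changed by a median of 0.25 in follicle cells, with 61.0% advanced and 15.2% delayed, and by 0.12 in wing discs, with 62.6% advanced and 0.166% delayed. In the first 1 Mb outside the border the median change was −0.12 in follicle cells and 0.03 in wing discs. Across windows the changes in both tissues, which share no S phase sample, had a Spearman's rho of 0.40 over 13353 windows, 0.34 over the arms and 0.25 over pericentric windows. Library kit and wild-type strain also differ between the tissues. So does the range of the profiles: the SD of pericentric windows was 0.52 in wild-type follicle cells and 0.13 in yw wing discs. Changes in log2 and the shared threshold of 0.1 are therefore not on a common scale. After quantile normalization the pericentric median change in follicle cells was 0.079, and wing discs were not scaled in that way. The difference between tissues was not tested.

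Limits on the values above are these. Quantile normalization lowered the pericentric median change to 0.079, under the threshold of 0.1, and a border moved 0.5 Mb away from the centromere lowered it to 0.16. Only 12 pericentric windows are at most 20% masked, so heterochromatic values rest almost wholly on repeat-rich windows.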

How the data were processed

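S phase DNA of 2 samples per condition was sequenced. The authors aligned reads to dm6 with Bowtie 2 (v2.3.2), kept those with a mapping quality over 10 with SAMtools (v1.9), counted them in 100-kb windows at 10-kb steps, scaled them to depth and divided them by wing disc G1 reads. They deposited the log2 ratio as 1 mean per condition, not quantile normalized. Per their methods the S/G1 ratios of the S phase samples were averaged. The sequencing depth, the sequencer of each follicle cell library and the G1 library used for each condition are not given in the sources used here.

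From these values, with Python 3.11.15, numpy 2.4.6 and pandas 2.3.3, each profile was centred on its arm median after removal of non-finite windows and the X block. The calling step was tested on simulated data. The study's own test needs values per sample, so its log2 threshold of 0.1 was used without a p-value. Pericentric windows had midpoints from 22 Mb on 2L and X, from 23 Mb on 3L, up to 5.7 Mb on 2R and up to 4.2 Mb on 3R. Window ends equalled the scaffold lengths of the RefSeq dm6 assembly, from which GC, repeats and gaps came, and genes came from the Ensembl annotation of that assembly.

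The members and lists were chosen with earlier results of these data known. Named regions were, of runs of at least 5 changed windows, the 5 with the largest mean change in each direction on the arms and the largest in each direction on each arm in heterochromatin, plus the longest ones, added after their values were seen. To these came the 8 deepest valleys and 8 highest peaks of the endocycling profile on the arms at least 0.5 Mb apart, the outermost 10 windows of each arm, and 6 gene lists, in which 1 of 22 replication genes (lat) was not matched. Alternatives were other scalings, a threshold of 0.2, every 10th window, removal of extreme, masked or gap windows, a GC correction, another wild-type profile and shifted borders. RNA samples were not used here.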

Additional observations from a re-analysis of the deposited data

Results flagged for a closer look

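With 1 mean per condition no group of samples could be searched for an outlying sample. Among the named runs and gene windows, 4 changed by over 0.1 in opposite directions in Rif1PP1 follicle cells and Rif1PP1 wing discs, each against the wild type of its tissue, and the difference between the tissues was not tested. The 3R run chr3R:510001-710000 changed by −0.33 in follicle cells and 0.23 in wing discs, where it stood at −0.12 in Rif1PP1 and −0.35 in yw. The X run chrX:21470001-21770000 beside flam changed by −0.22 in follicle cells and 0.11 in wing discs. The window shared by stnA and stnB changed by −0.10 and 0.19, and that of su(f) by −0.11 and 0.18. All 4 lie within 4 Mb of a centromere-proximal scaffold end.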

How the results depend on the processing

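No paired analysis was possible because the deposited table holds 1 mean per condition, and for the same reason no replicate could be left out in turn. Of the values of the main comparisons under each alternative, 118 stayed close to the value reported and 16 moved further. Close meant within 1.5 times for counts and shares, and within both 1.5 times and 0.1 for changes over 0.1 in size. Smaller changes had to stay only within 0.1, so the medians of the arms (−0.01) and of the earliest quintile (−0.03) could hardly be counted as moved. Quantile normalization gave a pericentric median of 0.079 and a latest-quintile median of 0.10. A threshold of 0.2 left 1526 advanced and 302 delayed windows, with 8.23% of pericentric windows delayed. Every 10th window, by construction, gave 243 advanced and 160 delayed, and the arms alone gave 1262 advanced windows and a latest-quintile median of 0.040. Without windows over 20% masked or gap, which leaves 12 pericentric windows, 759 were advanced and 1029 delayed, with a pericentric median of 0.10, 8.33% of pericentric windows delayed and a latest-quintile median of 0.023. Shifting the border by 0.5 Mb toward the centromere gave −0.047 for the first 1 Mb of the arms, and away from it a pericentric median of 0.16. Without centring, 2197 were advanced and 2346 delayed.

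Of the values of named runs, valleys, peaks, ends and gene windows, 1071 were close to the value reported, 74 moved and 7 changed sign. Quantile normalization turned the histone peak (chr2L:21420001-21520000) to 0.45. With wild-type endocycling cells as the comparison, the change was 0.047 in the histone run, 0.010 in the 3R run chr3R:510001-710000, −0.23 in the peak at chr3L:8700001-8800000 and in the Cp15 window, −0.11 in the Cp7Fa window and −0.10 in the Cp7Fc window. The causes were not tested. Leaving out windows at exactly 0 or with over 5% gap, added after the data were seen, moved no value of the main comparisons by over 1.5 times or 0.1. Depth is not known, so values of single windows in repeats cannot be given a counting error.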
